A study of Homo sapiens with 2 samples.

Results

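Caveolins and the other coat proteins of caveolae were followed through the RNA of PLC/PRF/5 cells, an established human hepatocellular carcinoma line. The 8 genes were picked by name, with earlier results of this comparison known, and each was found in 1 row of the table, out of 24991 single-gene symbols. They are the caveolins CAV1, CAV2 and CAV3, the cavins PTRF, SDPR and PRKCDBP (now called CAVIN1, CAVIN2 and CAVIN3), the ATPase EHD2 and the membrane-bending protein PACSIN2. One group was NFX1_OE, cells overexpressing the zinc-finger transcription factor NFX1, and the other was EV, cells carrying the empty vector. Each had 1 library, and both groups were kept under hypoxia in the same serum-supplemented medium. The sources used here do not give the overexpression construct, its promoter, the oxygen level or the duration of hypoxia. No p-value was computed from 1 library a group, and each difference is one between libraries, not between conditions.

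Caveolae are small flask-shaped pits of the plasma membrane, abundant in endothelium, muscle, fibroblasts and adipocytes and scarce in hepatocytes. CAV1, or CAV3 in muscle, inserts into the inner leaflet and oligomerises, and CAV2 joins it in hetero-oligomers. Cavins then bind from the cytosol and form an outer coat, for which PTRF is required, while EHD2 holds the neck of the pit at the surface and PACSIN2 shapes it through its F-BAR domain. Caveolae flatten when the membrane is stretched, and they have been linked to lipid uptake, mechanical protection and receptor signalling.

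The sequences before the transcription starts are shown first because CAV1 is reported to respond to hypoxia and had the largest difference of the 8 genes. RefSeq windows (GRCh38.p14, the 250 bases before a start) were matched for 6 of the 8 genes, in 14 windows. They were searched on both strands for the core letters of hypoxia-inducible factor sites, ACGTG and GCGTG, with overlapping matches counted apart. Only stretches outside annotated exons are printed, except for a 30-base site. Capitals mark a core match, on either strand.
CAV1, site before the first start, chr7:116524867-116524896, plus strand: cccggcgcagcaCACGTccgggccaaccgc
CAV1, before the downstream start, chr7:116526112-116526276, plus strand: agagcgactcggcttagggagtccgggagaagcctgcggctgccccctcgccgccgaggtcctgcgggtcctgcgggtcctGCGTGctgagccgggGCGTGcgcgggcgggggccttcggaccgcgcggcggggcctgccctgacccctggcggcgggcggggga
PACSIN2, before its most upstream start, chr22:43015150-43015399, minus strand: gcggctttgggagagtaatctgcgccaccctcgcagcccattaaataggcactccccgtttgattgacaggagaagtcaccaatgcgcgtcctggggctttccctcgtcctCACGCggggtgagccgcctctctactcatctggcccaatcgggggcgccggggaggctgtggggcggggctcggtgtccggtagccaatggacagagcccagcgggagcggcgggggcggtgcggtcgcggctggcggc
SDPR, stretch outside the exon, chr2:191847256-191847338, minus strand: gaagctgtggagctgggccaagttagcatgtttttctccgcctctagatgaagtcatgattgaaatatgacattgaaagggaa
CAV1 had 1 ACGTG match, on the opposite strand, beginning 130 bases before its first start, and 2 GCGTG matches beginning 169 and 154 bases before its downstream start. PACSIN2 had a GCGTG match in 4 of its 6 windows, 3 of which overlap and share it, and the match printed lies on the opposite strand, 139 bases before its most upstream start. Neither core occurs in the windows of CAV2, SDPR, CAV3 or EHD2. ACGTG occurs in 18.5% and GCGTG in 32.2% of all 35116 windows of that length, and either form in 43.2%. The core letters bound by TEAD factors, GGAATG, occur in no CAV1 or CAV2 window, in the SDPR window and in 11.9% of all windows. They also occur in 4 PACSIN2 windows, 3 of which overlap and share 1 match. The GC box GGGCGG, present in 42.6% of all windows, occurs 3 times before the first start of CAV1 and 6 times before that of CAV2. It also occurs 1 time in the EHD2 window and 2 times in the PACSIN2 window printed above, but not in those of SDPR or CAV3. The share of 42.6% counts windows with any match, not copies. These are matches of letters only.

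Levels are in FPKM, sequenced fragments scaled to transcript length and to library depth, which allows genes of different length to be set side by side. NFX1 itself had 56.0 FPKM in the NFX1_OE library and 4.21 FPKM in the EV library, in the direction of the labels. Steps between low values gave depths of 42.0 M fragments for NFX1_OE and 36.6 M for EV. Counting intervals below are exact 95% intervals from fragments estimated with these depths, and they cover counting error only, not the spread between cultures. All 9 listed hepatocyte and hepatoma markers reached 1 FPKM in either library, with SERPINA1 at 6807 FPKM in NFX1_OE and 5935 FPKM in EV. ALB, which encodes albumin, was low at 1.06 FPKM in NFX1_OE and 0.776 FPKM in EV. The 25 listed markers of the cell types rich in caveolae were under 1 FPKM in both libraries. Their summed FPKM was 0.0682 in NFX1_OE and 0.0587 in EV for 6 endothelial markers, and 1.36 in NFX1_OE and 1.40 in EV for 8 fibroblast markers. It was 0.253 in NFX1_OE and 0.321 in EV for 6 muscle markers, and 0.191 in NFX1_OE and 0.0347 in EV for 5 adipocyte markers. CDH5, KDR, EMCN, ACTA2, MYOG, ADIPOQ and LPL were listed at 0 in both.

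**Figure D1:**
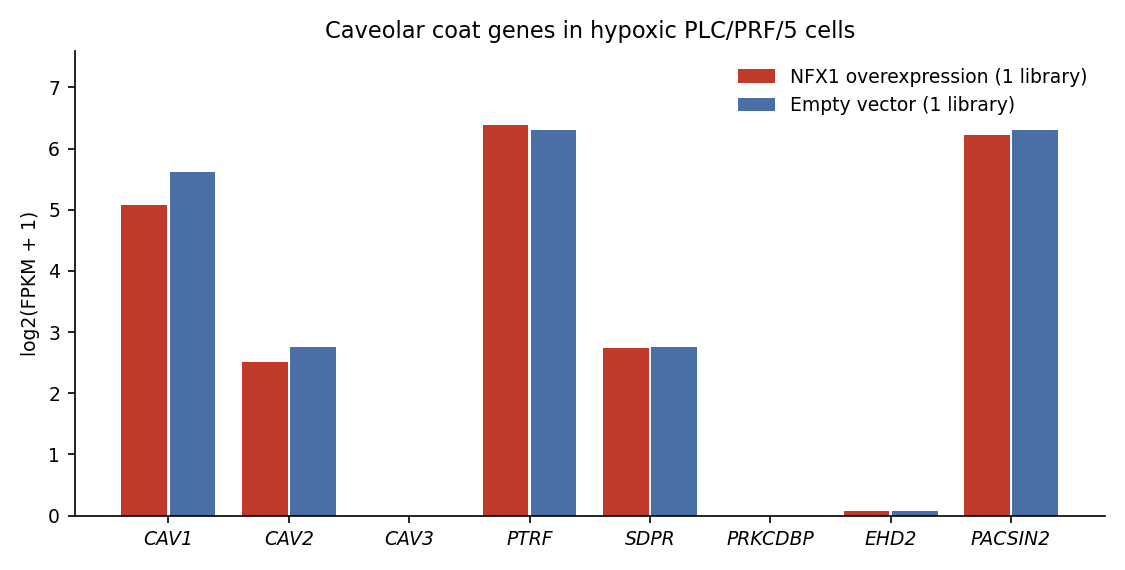
Level of each of the 8 genes as log2(FPKM + 1), with red bars for the NFX1_OE library and blue bars for the EV library (1 library each, so no error bar). PTRF and PACSIN2 stand highest in both, CAV1 next, CAV2 and SDPR lower, and CAV3, PRKCDBP and EHD2 at or near 0.

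Among the caveolins, CAV1 (chromosome 7, 116164839 to 116201239, hg19), the main caveolin of non-muscle cells, had 32.7 FPKM in the NFX1_OE library and 47.9 FPKM in the EV library. The NFX1_OE value was thus 0.681 times the EV value, with a counting interval of 0.641 to 0.724. On the log2(FPKM + 1) scale, used for all changes below, the change was -0.54. In bulk RNA, fewer cells with the transcript and less of it per cell cannot be told apart. CAV2 (chromosome 7, 116139655 to 116148595) had 4.68 FPKM in NFX1_OE and 5.75 FPKM in EV, a ratio of 0.814 and a change of -0.25. Its counting interval was 0.638 to 1.03 with a transcript length of 971 bp, the median over its annotated transcripts, and 0.727 to 0.912 with the longest transcript of 3301 bp. Both caveolins that were detected were lower in NFX1_OE, and for CAV2 the length assumed decides whether counting error alone covers the difference. CAV3, the caveolin of skeletal and cardiac muscle (chromosome 3, 8775486 to 8788451), was listed at 0 in both libraries. With 1260 bp of transcript, a count of 0 allows up to 0.0724 FPKM in NFX1_OE and 0.0831 FPKM in EV.

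The cavins lay closer together between the libraries. PTRF (chromosome 17, 40554467 to 40575338), which is needed to form the coat, had 83.1 FPKM in NFX1_OE and 77.9 FPKM in EV. Its ratio was 1.07, with a counting interval of 1.04 to 1.10, and its change was 0.09. SDPR (chromosome 2, 192699032 to 192712006), which helps to curve the membrane, had 5.65 FPKM in NFX1_OE and 5.75 FPKM in EV, a ratio of 0.983 with an interval of 0.881 to 1.10. PRKCDBP (chromosome 11, 6340176 to 6341740), a cavin that binds protein kinase C delta, was listed at 0 in both, which with 991 bp of transcript allows up to 0.0995 FPKM in NFX1_OE and 0.114 FPKM in EV. The RNA of the cavin coat in both libraries was therefore almost all PTRF, at 93.6% of the summed cavin FPKM in NFX1_OE and 93.1% in EV.

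Of the accessory proteins, PACSIN2 (chromosome 22, 43265761 to 43411184) had 73.8 FPKM in NFX1_OE and 77.8 FPKM in EV, a change of -0.08. Its ratio of 0.948 had a counting interval of 0.897 to 1.002 with the median transcript of 1124 bp. With the longest of 3249 bp the interval was 0.920 to 0.977. As for CAV2, the length assumed decides whether counting error alone covers the difference. EHD2 (chromosome 19, 48216601 to 48246391) was close to absent, with 0.0503 FPKM in NFX1_OE and 0.0578 FPKM in EV. These values correspond to an estimated 2 fragments in each library with the median transcript of 1215 bp, or 7 in each with the longest of 3585 bp, so no fold is given.

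In the authors' deposited table CAV1 had a log2 fold change of -0.55 and CAV2 of -0.30, and the q-value was 0.999 for each of the 5 members that were tested there. CAV3, PRKCDBP and EHD2 carried the mark for rows that were not tested in the authors' deposited table. Of the 28658 rows, 14994 had the status OK, as the 5 tested members did. In all, 18 rows were marked as significant in the authors' deposited table, and NFX1 is 1 of them.

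**Figure D2:**
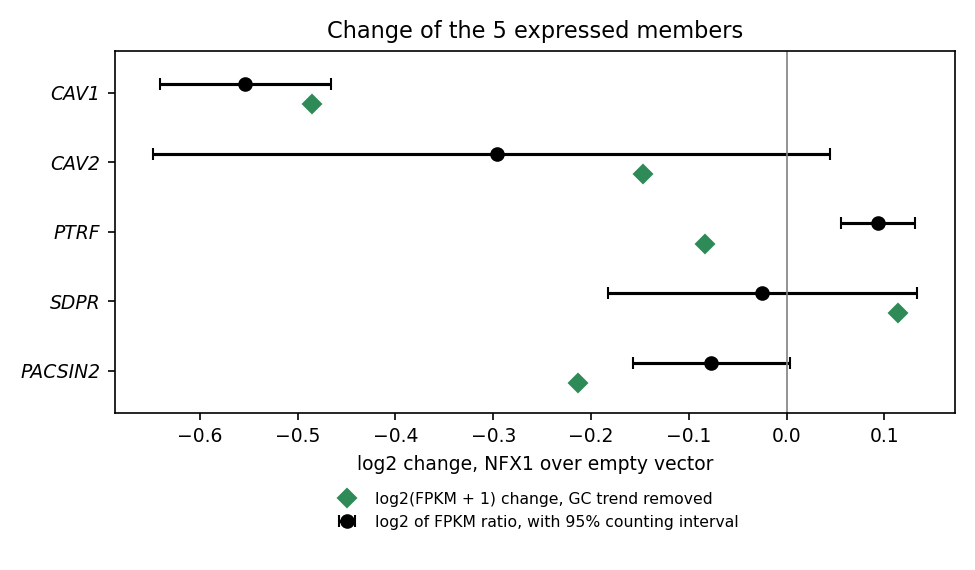
Change of the 5 members that reached 1 FPKM in either library. Black points are log2 ratios of FPKM, NFX1_OE over EV, with 95% counting intervals (median transcript length), and green diamonds are log2(FPKM + 1) changes adjusted for base composition, length and level. CAV1 lies at -0.55 with an interval of -0.64 to -0.47, below the intervals of PTRF, SDPR and PACSIN2, while the interval of CAV2 is wide and reaches 0.04.

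Ratios between genes within a library do not depend on how the libraries were scaled. The ratio of CAV1 to PTRF, the 2 proteins needed to build a caveola outside muscle, was 0.393 in NFX1_OE and 0.615 in EV. The NFX1_OE ratio was 0.639 times the EV ratio, with a counting interval of 0.598 to 0.682. Against PACSIN2 the same comparison gave 0.718 (0.662 to 0.781), and against SDPR it gave 0.693 (0.612 to 0.786). These quotients and their intervals are not adjusted for base composition, transcript length or level. With a fitted trend on all of these subtracted, the change was -0.49 for CAV1, -0.08 for PTRF, -0.21 for PACSIN2 and 0.11 for SDPR. CAV1 was then closer to PTRF and PACSIN2 than as deposited, and further from SDPR. The ratio of CAV1 to its partner CAV2 was 6.97 in NFX1_OE and 8.33 in EV, and the interval of the quotient, 0.655 to 1.08, includes 1. CAV1 made up 87.5% of the summed caveolin FPKM in NFX1_OE and 89.3% in EV. Summed caveolin FPKM was 37.3 in NFX1_OE and 53.7 in EV, and summed cavin FPKM was 88.7 in NFX1_OE and 83.6 in EV. The caveolin and cavin sums thus differed in opposite directions between the libraries as deposited, but PTRF made up most of the cavin sum. SDPR, the other cavin detected, was slightly lower in NFX1_OE as deposited. The change of PTRF was 0.02 with upper-quartile scaling and -0.08 with the fitted trend subtracted.

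A gene was counted as past the limit, on the low or the high side, when its change was at least 0.32 in size, among the 11182 genes that reached 1 FPKM in either library, called expressed below. Of the 8 genes, 5 passed that minimum, and 1 of the 5, CAV1, was past the limit on the low side, as were 2.3% of all 11182 genes, with 6.12% past it on the high side. Upper-quartile scaling turned that split round over all genes, to 567 past the limit on the low side and 309 on the high side, against 257 and 684 as deposited. This contrast was in view when the genes were chosen, so nothing is read from the count. As deposited, no member reached a 1.5-fold difference, though CAV1 was at -0.61, past 1.5-fold, with upper-quartile scaling. A 1.5-fold difference was reached by 0.215% of genes on the low and 0.42% on the high side, and a 2-fold one by 0.0358% and 0.107%. The median change of the 5 was -0.08, beside 0.01 over all 11182. CAV1 stood at rank 35 from the lowest change of all 11182 genes, and at rank 13 among the 7710 genes that reached 5 FPKM. CAV2 stood at rank 686.

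Changes in these libraries moved with the base composition of the transcript. Genes were put into 5 groups of 2193 by GC content. In group 2, from 42.8% to 47.8%, the median change was -0.10, and 2.96% of its genes were past the limit on the low side. CAV1, with a median transcript GC content of 46.2%, CAV2 with 42.8% and SDPR with 43.2% all belong there. In group 5, with the highest GC content, the median change was 0.20, and PTRF, at 59.9% GC, lay below that with 0.09. PACSIN2, at 54.6% GC, belongs to group 4, where the median change was 0.14. With a fitted trend on GC content, transcript length and level subtracted, giving adjusted changes, CAV1 was at -0.49 and CAV2 at -0.15. CAV1 was then at rank 56 from the lowest of 10965 genes and CAV2 at rank 1464. PTRF was at -0.08, SDPR at 0.11 and PACSIN2 at -0.21. The direction of PTRF and of SDPR thus depended on the adjustment, and that of CAV1, CAV2 and PACSIN2 did not. By adjusted changes CAV1 was again the 1 member past the limit, beside 1.86% of all genes past it on the low and 1.95% on the high side.

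**Figure D3:**
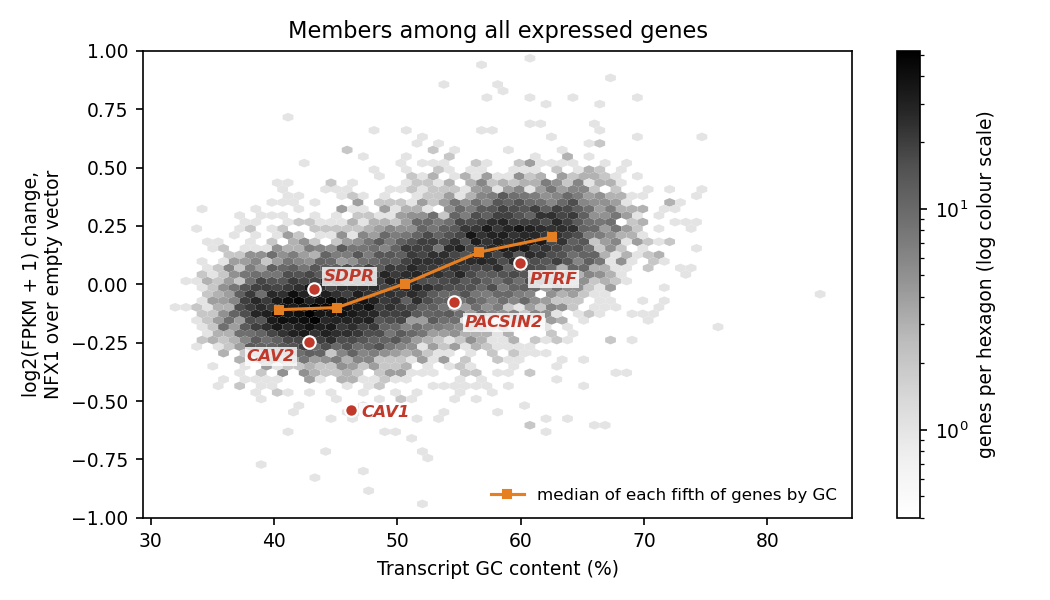
Change of log2(FPKM + 1), NFX1_OE over EV, against the GC content of the transcript (percent, median over annotated transcripts) for expressed genes, with grey hexagons for gene density, orange squares for the medians of 5 equal groups by GC content, and red points for the 5 expressed members. CAV1 at 46.2% GC and -0.54 lies below the bulk of genes of like GC content; 13 genes beyond a change of 1 in size are outside the axis.

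CAV1 and CAV2 are neighbours, with 16243 bp between their loci in hg19. Within 500000 bp of CAV1 there were 4 other expressed genes. TES, which encodes a focal adhesion protein, had 10.5 FPKM in NFX1_OE and 12.04 FPKM in EV, a change of -0.18. MET, the receptor of hepatocyte growth factor, had 1.74 FPKM in NFX1_OE and 2.07 FPKM in EV, a change of -0.17. The actin capping gene CAPZA2 had a change of -0.04 and ST7 a change of -0.12. All 4 were slightly lower in NFX1_OE as deposited, from -0.18 to -0.04, and their adjusted changes lay between -0.09 and 0.03. TFEC, LOC102724434, LINC01510, MIR6132 and ST7-AS2, also within the window, were listed at 0 in both libraries, and ST7-AS1 and ST7-OT4 were under 1 FPKM.

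**Figure D4:**
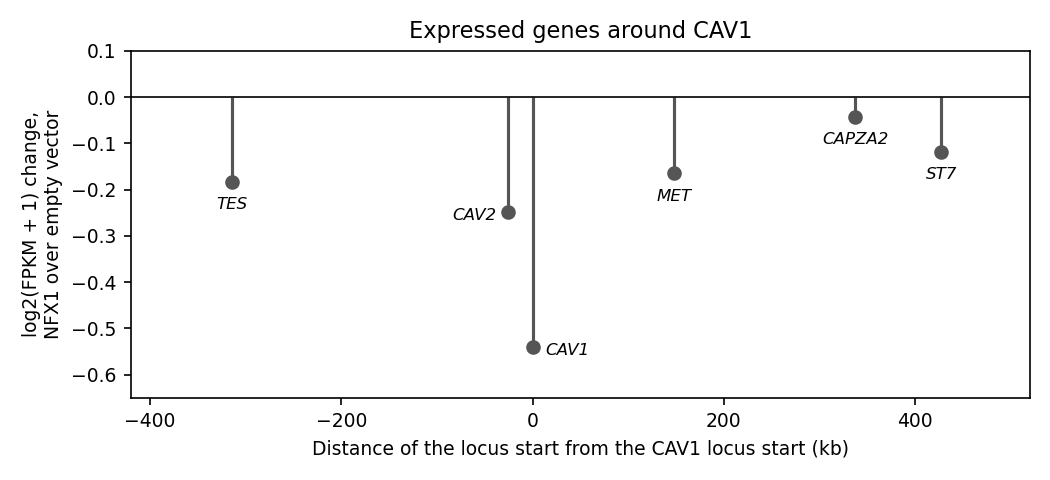
Change of log2(FPKM + 1), NFX1_OE over EV, of the 6 expressed genes around CAV1, against the distance of each locus start from that of CAV1 in kb. CAV1 reaches -0.54 and CAV2 -0.25, while TES, MET, CAPZA2 and ST7 lie between -0.18 and -0.04.

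The 5 genes whose log2(FPKM + 1) values in the 2 libraries were nearest to those of CAV1, by Euclidean distance, differed in function. SAP30, a subunit of the SIN3 histone deacetylase complex, had 31.4 FPKM in NFX1_OE and 43.7 FPKM in EV, a distance of 0.14 and a change of -0.47. The others were RAB9A, a late endosome GTPase, ACSL4, a long-chain acyl-CoA synthetase, COPB2, a COPI coat subunit, and IL17RB, a cytokine receptor. From a distance of 0.16 for RAB9A to 0.20 for IL17RB, they had changes between -0.35 and -0.26. Likeness over 2 libraries describes level and difference only.

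Paralogs of the coat genes were expressed where EHD2 was not. EHD1, a recycling endosome ATPase, had 53.4 FPKM in NFX1_OE and 48.3 FPKM in EV. EHD4 had 51.2 FPKM in NFX1_OE and 53.8 FPKM in EV, and EHD3 had 5.72 FPKM in NFX1_OE and 5.997 FPKM in EV. PACSIN3, which acts on caveolae in muscle, had 43.5 FPKM in NFX1_OE and 36.7 FPKM in EV, a change of 0.24, or 0.01 adjusted. PACSIN1, the neuronal form, and MURC, the muscle cavin, were under 1 FPKM in both. None of the 4 expressed paralogs was past the limit, beside 2.3% of all expressed genes on the low and 6.12% on the high side. The median change of the 4 was 0.04, but -0.08 adjusted and -0.03 with upper-quartile scaling.

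Among 15 receptors and signalling proteins reported in caveolae, 11 were expressed, and 8 of these had a change below 0 and 3 above it, with a median of -0.15, while 48.0% of all expressed genes were below 0. With no filter on low values the median was -0.03. The cation channel gene TRPC1 was the only one past the limit as deposited, beside 2.3% of all expressed genes on the low and 6.12% on the high side. TRPC1 had 1.18 FPKM in NFX1_OE and 2.06 FPKM in EV, a change of -0.49. Its level is near the minimum of 1 FPKM. The list's count on the low side was 0 with a pseudocount of 5 or FPKM of at least 5, and 3 with upper-quartile scaling. EGFR had 41.2 FPKM in NFX1_OE and 49.4 FPKM in EV, a change of -0.26, or -0.35 adjusted. The TGF-beta receptor gene TGFBR1 had 6.17 FPKM in NFX1_OE and 7.61 FPKM in EV, and the BMP receptor gene BMPR1A had 5.85 FPKM in NFX1_OE and 6.99 FPKM in EV. By adjusted changes 10 of the 11 were below 0, with a median of -0.09, beside 49.7% of all genes. Among the 10, ABL1, SCARB1, SRC and TGFBR2 lay close to 0, between -0.03 and -0.01. TRPC1 and EGFR were past the limit on the low side by adjusted changes, as were 1.86% of 10965 genes. The list was written with earlier results of these data known, so nothing is read from these counts. NOS3, CD36, FYN and ROR1 were under 1 FPKM in both libraries.

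Reported regulators of caveolin and cavin transcription were all expressed, 10 of 14 with a change below 0 and 4 above it, with a median of -0.07, beside 48.0% of all expressed genes below 0. By adjusted changes 8 were below 0 and 6 above it, with a median of -0.02, beside 49.7%. YAP1, a mechanosensitive coactivator, had 25.2 FPKM in NFX1_OE and 31.0 FPKM in EV, a change of -0.29, or -0.21 adjusted. Its DNA-binding partners TEAD4 and TEAD2 had changes of 0.27 and 0.24, or 0.06 and 0.09 adjusted. SREBF1, a regulator of lipid synthesis genes, was the only one past the limit as deposited, with 63.7 FPKM in NFX1_OE and 48.0 FPKM in EV. Its change of 0.40 was 0.18 adjusted. Over all expressed genes 6.12% were past the limit on the high and 2.3% on the low side. With upper-quartile scaling the list's count on the low side was 1, against 0 as deposited. HIF1A, an oxygen-regulated factor subunit, had 13.2 FPKM in NFX1_OE and 15.3 FPKM in EV, a change of -0.20, or -0.11 adjusted. EPAS1, another such subunit, had 140 FPKM in NFX1_OE and 153 FPKM in EV, a change of -0.13. Its adjusted change of -0.31 was the largest in size among the 14 regulators. For turnover of caveolin, the segregase VCP had 409 FPKM in NFX1_OE and 381 FPKM in EV, its cofactor UBXN6 had a change of 0.23 and the ubiquitin ligase ZNRF1 of 0.11. Adjusted, all 3 lay between -0.03 and 0.00.

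Other membrane coats and scaffolds were described for comparison. Flotillins and related raft scaffolds had a median change of 0.06 over 8 expressed genes of 9, but -0.01 both adjusted and with upper-quartile scaling, and none was past the limit. FLOT2 had 42.7 FPKM in NFX1_OE and 36.3 FPKM in EV, and ERLIN1, a scaffold of the endoplasmic reticulum, had 30.7 FPKM in NFX1_OE and 36.3 FPKM in EV. STOML2 had a change of 0.29 and PROM1 of -0.22. Clathrin coat and adaptor genes had a median of 0.16 over 16 expressed genes of 18, or 0.09 with upper-quartile scaling. Of the 16, 10 were above 0 and 6 below it, while 48.0% of all expressed genes were below 0. As for the raft scaffolds, none was past the limit, beside 2.3% of all expressed genes on the low and 6.12% on the high side. The heavy chain gene CLTC had 25.5 FPKM in NFX1_OE and 30.2 FPKM in EV, a change of -0.23, and the adaptor genes EPN1, AP2S1 and AP2A1 had changes of 0.24, 0.21 and 0.20. The clathrin median was 0.00 by adjusted changes, with 8 genes on each side of 0, beside 49.7% of all genes below it.

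Other proteins with BAR domains, the fold through which PACSIN2 bends membranes, had a median change of 0.04 over 10 expressed genes of 13, or 0.01 adjusted, but -0.03 with upper-quartile scaling. The endophilin genes SH3GLB2 and SH3GL1 were past the limit on the high side. SH3GLB2 had 26.7 FPKM in NFX1_OE and 19.3 FPKM in EV, a change of 0.44, or 0.26 adjusted. SH3GL1 had 98.3 FPKM in NFX1_OE and 78.3 FPKM in EV, a change of 0.324, just past the limit of 0.322, or 0.10 adjusted. The list's count on the high side was 1 with median centring, upper-quartile scaling or a pseudocount of 5. By adjusted changes it was 0. BIN1 had a change of 0.16 and FNBP1L of -0.17. Over the 66 expressed genes of all 7 lists, 1 was past the limit on the low and 3 on the high side, beside 2.3% and 6.12% of all genes, so these shares are near the background.

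**Figure D5:**
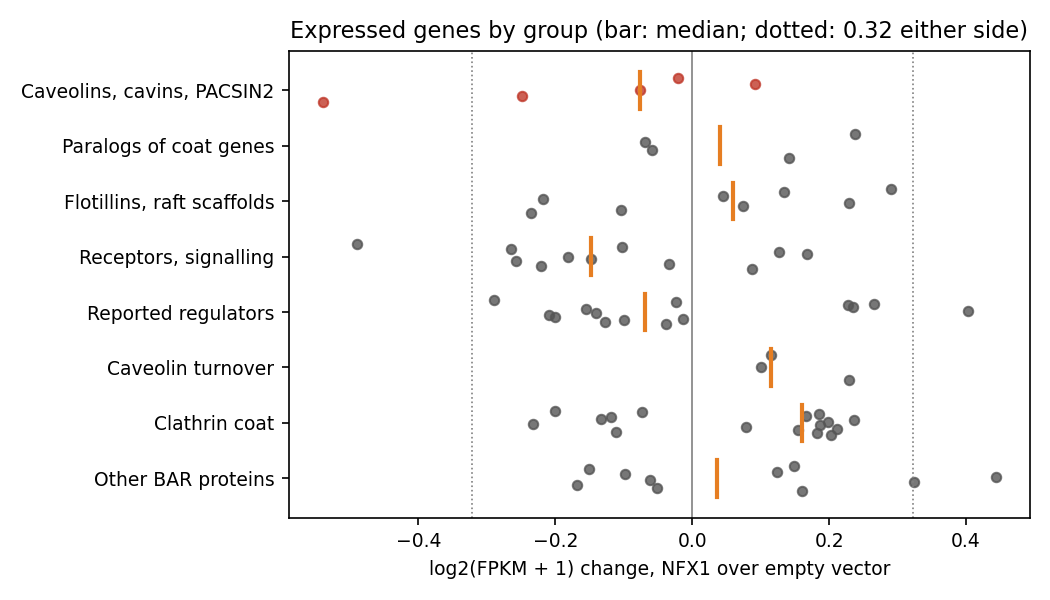
Change of log2(FPKM + 1), NFX1_OE over EV, of the expressed caveolar coat genes (red) and of 7 related lists (grey), 1 point per gene, with orange bars for list medians and dotted lines at the limit of 0.32 on either side. CAV1 at -0.54 and TRPC1 at -0.49 are the points left of the lower limit, and SREBF1, SH3GL1 and SH3GLB2 are right of the upper one.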

How the data were processed

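RNA from hypoxic PLC/PRF/5 cells was sequenced in 1 NFX1_OE and 1 EV library, grouped by their genotype labels. Per the submitters' processing notes, the authors used Cufflinks 2.2.1, TopHat2 2.1.0 and genome build hg19; the sources used here do not give settings, annotation, strand or scaling. The deposited file holds FPKM per library, and, per the file headers, the authors' log2 fold change, test statistic (a score), p-value and q-value. Rows lacking a symbol (1651 of 28658) or naming several (492) were left out, and a repeated symbol was read from its highest row by mean.

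Changes are log2 ratios of FPKM + 1. For depth, values of short loci whose span matched a GENCODE 29 transcript (taken as 1 exon) were fitted to whole fragments, within a relative 0.02. Whole values were reached by 49 of 52 low NFX1_OE loci and 45 of 46 low EV loci, with a fragment length of 273 bp in NFX1_OE and 274 bp in EV. Fragments per gene then used GENCODE transcript lengths, matched by symbol because that annotation is on another build, and exact Clopper-Pearson intervals. The trend with GC content, length and level was a cubic spline fit made on genes changed by less than 2-fold, for 10965 genes (98.1%), and took 40.5% of the variance.

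The members, the 7 lists and the limit of 0.32 on the log2 scale were chosen with earlier results of these data known. Named were all members, NFX1, HIF1A, up to 4 genes with the greatest change per list, expressed paralogs, neighbours within 500000 bp of CAV1 and the 5 genes nearest to it; other genes were named after their values were seen. The depth fit, the trend removal and the counting interval were tested on simulated counts, with a single length per gene. That could not test the choice of transcript length or the authors' scaling. Alternatives covered the pseudocount (0.1 and 5), filter, scaling, summed rows, row status, GC trend, fold limits of 1.5 and 2 and transcript length. Versions were matplotlib 3.10.9, scikit-learn 1.9.0, scipy 1.17.1, pandas 2.3.3, numpy 2.4.6 and Python 3.11.15.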

Additional observations from a re-analysis of the deposited data

How the results depend on the processing

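The change of CAV1 ranged from -0.61 to -0.49 over the settings that recomputed it, and that of CAV2 from -0.31 to -0.15. Not all of these settings could turn a direction. A pseudocount cannot do so, and summing rows alters nothing for members, each found in 1 row. Only centring, scaling and removal of the GC trend could. PACSIN2 moved to -0.21 with the GC trend removed. PTRF moved to 0.020 with upper-quartile scaling and to -0.083 with the GC trend removed, and SDPR ranged from -0.08 to 0.11. As deposited, no member reached 1.5-fold or 2-fold, so the count of lower members was 0 there, while CAV1 passed 1.5-fold with upper-quartile scaling. List genes past the limit on the high side were 0 with the GC trend removed, at 1.5-fold and at 2-fold. On the low side they were 4 with upper-quartile scaling, 2 with the trend removed, and 0 with a pseudocount of 5, with FPKM of at least 5, at 1.5-fold and at 2-fold. The median over list genes was 0.082 with FPKM of at least 5. Upper-quartile scaling shifted log2 ratios of FPKM by 0.07, and log2(FPKM + 1) changes by less at low levels, and median centring shifted all changes by 0.01. Over all genes, upper-quartile scaling gave 567 lower and 309 higher by the limit, against 257 and 684 as deposited. Lower genes were 584 with a pseudocount of 0.1, 52 with 5, 120 with FPKM of at least 5, 24 at 1.5-fold and 4 at 2-fold. Higher genes were 322 with a pseudocount of 5, 214 with the GC trend removed, 47 at 1.5-fold and 12 at 2-fold. Beyond these settings' own construction, the cause was not tested. No paired analysis was possible because each group had 1 library, and no library could be left out. Estimated fragments for EHD2, CAV3 and PRKCDBP lie at or near the floor of 3.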
